A study of Mus musculus with 14 samples.

Results

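YAP knockdown was compared with scramble shRNA in mouse embryonic fibroblasts (MEFs) undergoing direct cardiac reprogramming on a stiff substrate. All cells carried retroviral Gata4, Hand2, Mef2c and Tbx5 (GHMT), the transcription factors that convert fibroblasts toward induced cardiomyocytes, and stayed for 2 weeks on a 126 kPa Matrigel-conjugated polyacrylamide hydrogel. The 2 GHMT/shYAP arrays came from cultures that also received a lentiviral hairpin against YAP, and the 2 GHMT/Scramble arrays from cultures with a scramble hairpin. The study calls the 2 cultures of a group independent biological replicates. Every Clariom S Mouse feature with 1 gene symbol and a value in these 4 arrays was included, which gave 19518 of the 19572 features with 1 symbol (19486 different symbols). The labels name no sorting step, so the RNA is that of the whole culture, with any cells that did not reprogram. Only 1 hairpin against YAP was on the arrays.

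YAP and its paralog TAZ are transcriptional coactivators without a DNA-binding domain of their own. In the nucleus they bind TEAD factors, which recognise the MCAT motif, and they drive genes for growth and for the matrix and cytoskeleton. The Hippo kinases retain them in the cytoplasm, and stiff substrates favour their nuclear form. In the heart YAP is known for promoting cardiomyocyte proliferation, and in fibroblasts for the response to matrix stiffness.

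Each deposited value is a log2 ratio to the mean of the 2 scramble arrays, so it carries no signal level, and the identity of the cells could not be checked by the level of their markers. Over all 22122 features with values in the 4 arrays, the SD of the ratios was 0.201 in each scramble array, 0.401 in shYAP array 1 and 0.433 in shYAP array 2. Each scramble array is set against a mean that includes it. The scramble SDs are thus equal by construction and not comparable with those of shYAP. The scramble arrays differed from each other, with 494 features 2-fold or more above the other in scramble array 1 and 77 in scramble array 2. Macrophage genes stood out in this difference: the median over 24 macrophage markers of the log2 difference between them was 2.21, with scramble array 1 above. Each result is therefore given against the mean of both scramble arrays and, where it matters, against each of them. The median difference (shYAP minus scramble) over all features was 0.05 in log2, with 0.07 against scramble array 1 and 0.03 against scramble array 2.

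Past limma (adjusted p under 0.05 over all features), 71 features were higher with shYAP, 0.321% of those tested, and 47 were lower, 0.212%. At an unadjusted p under 0.05 there were 2520 higher (11.4%) and 1635 lower (7.39%) features, and the arrays of the groups did not overlap in 6859 higher (31%) and 4331 lower (19.6%) ones. Of the 66 with a symbol among those higher past limma, 19 belonged to lists of muscle, cardiac, fatty acid oxidation or respiratory chain genes, against 1 of 43 among the lower ones. These lists, which were chosen with earlier results of these data known, hold 196 of the 19486 symbols measured (1.01%). By group means, 117 features were higher by 2-fold or more (0.529%) and 427 lower (1.93%). The same size of change against each scramble array alone was reached by 64 higher (0.289%) and 175 lower (0.791%) features. Both directions differed in what the scramble arrays did. Of the 427 lower features, scramble array 1 exceeded scramble array 2 by 2-fold or more in 329, and in 0 of the 117 higher ones, of which 106 lay within 2-fold between the scramble arrays. The 175 lower against each scramble array were not free of this gap: 135 had it, and 39 lay within 2-fold. All 71 features higher past limma and 45 of the 47 lower ones lay within 2-fold between the scramble arrays. A small spread within groups favours a call, so this is no separate check of the calls. The calls rested on both shYAP arrays: with either left out 0 features passed in each direction, with a lowest adjusted p of 0.105 without array 1 and 0.0658 without array 2, although 1487 higher and 999 lower features without array 1, and 1856 and 1048 without array 2, had an unadjusted p under 0.05. Without scramble array 1 the counts were 35 and 58, and without scramble array 2 they were 832 and 1105.

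**Figure D1:**
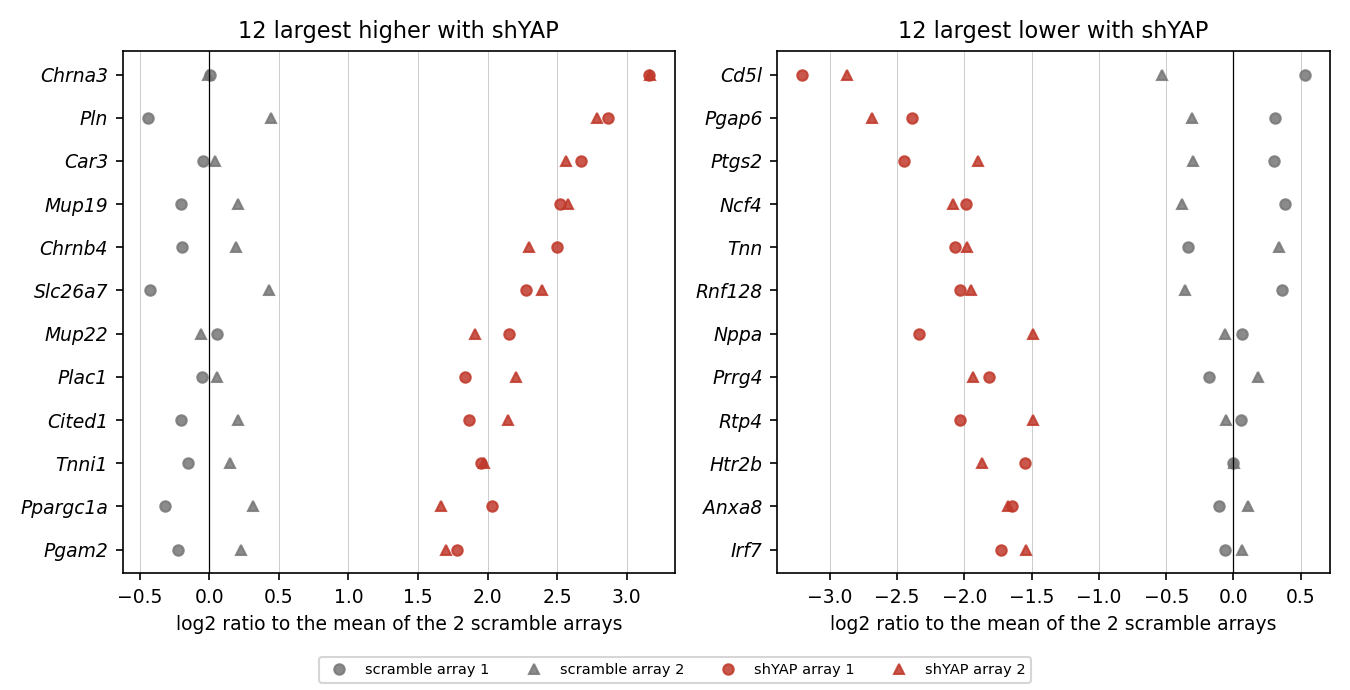
Log2 ratio to the scramble mean (x axis) in each of the 4 arrays for the 12 genes with the largest rise (left) and the 12 with the largest fall (right) past limma. Circles are array 1 and triangles array 2 of each group. In all 24 genes both shYAP arrays (red) lie on 1 side of both scramble arrays (grey), as the choice of genes required.

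The targeted gene was lower. Yap1, which encodes YAP, had ratios of -0.89 and -0.88 in the shYAP arrays and -0.11 and 0.11 in the scramble arrays. In log2 it fell by 0.88 (SE 0.12, with 2 arrays in each group; adjusted p = 0.0498), close to the threshold. Wwtr1, which encodes TAZ, differed by 0.10 (SE 0.17, adjusted p = 0.773), with both shYAP arrays at 0.10 between the scramble arrays at -0.25 and 0.25. Of 10 genes for YAP, TAZ, the TEAD factors and their VGLL partners, Yap1 alone passed. Tead2, a TEAD factor, had the next difference, 0.73 (SE 0.14, adjusted p = 0.0918). Tead1 differed by -0.10 (SE 0.20). Among 18 Hippo kinases and upstream regulators none passed, and the widest difference was that of Stk4, which encodes the kinase MST1, at -0.86 (SE 0.20, adjusted p = 0.124). None of the introduced factors passed either. Gata4 differed by 0.68 (SE 0.11, adjusted p = 0.0674), Mef2c by 0.23 (SE 0.11), Hand2 by 0.16 (SE 0.14) and Tbx5 by -0.19 (SE 0.13). Whether an array feature reads the retroviral transcript, the endogenous one or both was not analysed here.

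YAP/TAZ target genes went in both directions. None of the 28 measured passed limma, and 20 were below 0 (41.5% of all features were), with a median of -0.10. Against scramble array 1 the median was -0.02, with 14 of 28 below 0, and against scramble array 2 it was -0.33, with 24 below 0. Ankrd1, a stretch-responsive cardiac repressor and a common readout of YAP, had ratios of -0.73 and -0.97 in the shYAP arrays against -0.05 and 0.05 in the scramble arrays. Its difference was -0.85 (SE 0.12, adjusted p = 0.0525). The matricellular gene Ccn2, which encodes connective tissue growth factor, differed by -0.67 (SE 0.13, adjusted p = 0.0947). Nt5e, the ectonucleotidase CD73, differed by -0.66 (SE 0.11, adjusted p = 0.0772), and Crim1 by -0.66 (SE 0.11, adjusted p = 0.0777). In each of these 4 genes both shYAP arrays lay below both scramble arrays. This arrangement held for 13 of the 28 targets, and for 19.6% of all features, and in 3 of the 28 both shYAP arrays lay above both scramble arrays (31% of all features). Igfbp3, an IGF-binding protein, went the other way at 0.62 (SE 0.34, adjusted p = 0.374), with 1.11 against scramble array 1 and 0.13 against scramble array 2. Some genes of growth factor and cytokine signalling did pass. Inhba, the activin beta A subunit, fell by 1.04 (SE 0.10, adjusted p = 0.0284). Fstl3, an activin antagonist, fell by 0.94 (SE 0.12, adjusted p = 0.0456). Errfi1, a feedback inhibitor of the EGF receptor, fell by 0.86 (SE 0.11, adjusted p = 0.0425), and Lif, a cytokine of the IL-6 family, fell by 0.825 (SE 0.11, adjusted p = 0.0443). Fstl3, Errfi1 and Lif were chosen after their values were seen.

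**Figure D2:**
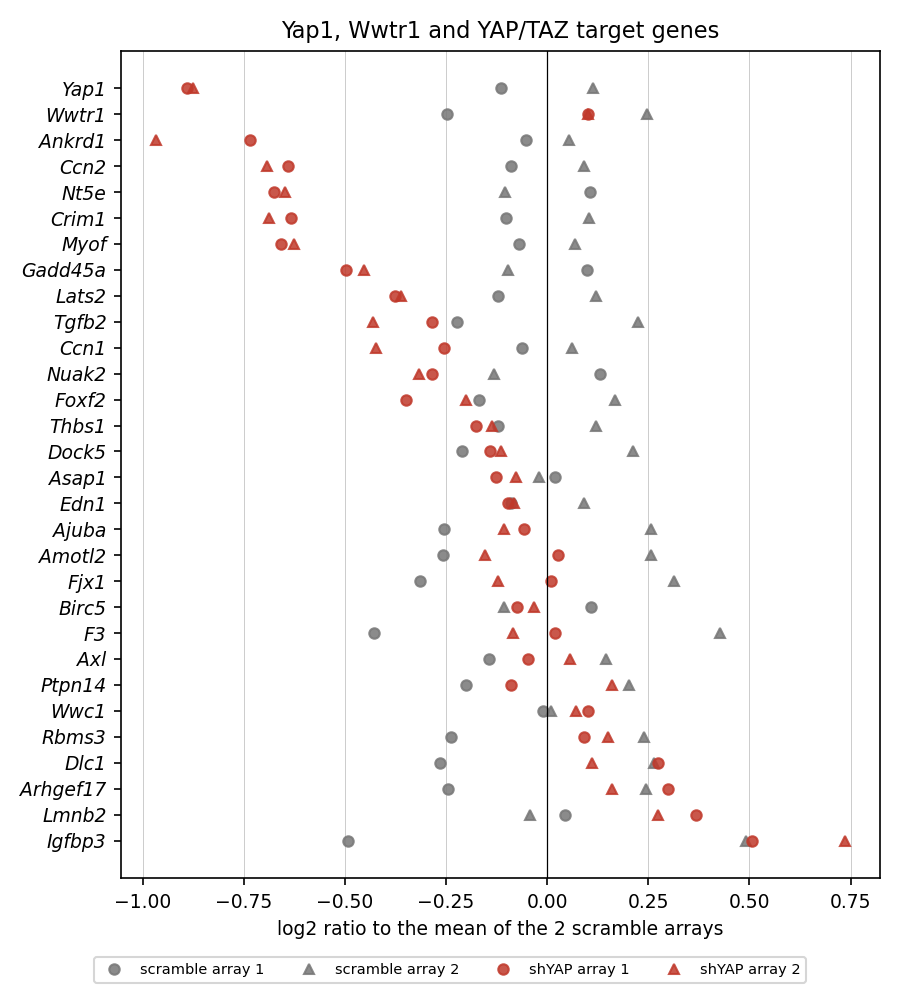
Log2 ratio to the scramble mean (x axis) of Yap1, Wwtr1 and 28 YAP/TAZ target genes in the 2 scramble (grey) and 2 shYAP (red) arrays, ordered below the first 2 genes by their difference. The shYAP arrays lie below both scramble arrays from Ankrd1 down to Thbs1, and in most genes below Thbs1 at least 1 of them lies between the scramble arrays.

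Some sarcomere genes rose with shYAP, in the thick filament, the thin filament and the Z-disc and M-band. Of 47 measured genes, 12 rose past limma and 0 fell (all features: 0.321% and 0.212%), 33 were above 0 (all features: 58.5%), and the median was 0.29. In 27 of the 47 both shYAP arrays lay above both scramble arrays (all features: 31%). The median was 0.33 against scramble array 1 and 0.30 against scramble array 2. In the thick filament, 3 of 12 genes rose. Myh6, the alpha myosin heavy chain of the adult mouse ventricle, had ratios of 1.61 and 1.49 with shYAP against -0.16 and 0.16 with scramble, and rose by 1.55 (SE 0.14, adjusted p = 0.023). Myh7, the beta heavy chain of the fetal heart, had 1.27 and 1.02 against -0.10 and 0.10, and rose by 1.14 (SE 0.14, adjusted p = 0.0393). The 2 myosin genes are close paralogs, and how far their probes cross-hybridise was not analysed here. Mybpc3, cardiac myosin-binding protein C, rose by 1.09 (SE 0.13, adjusted p = 0.0361). Myl4, the atrial essential light chain, differed by 0.98 (SE 0.17, adjusted p = 0.0798), and Mybphl by 1.31 (SE 0.24, adjusted p = 0.0898). The median of the 12 thick filament genes was 0.52.

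In the thin filament, 6 of 14 genes rose, with a median of 0.49. Tnni1, the slow skeletal troponin I that the embryonic heart uses, had ratios of 1.96 and 1.97 with shYAP against -0.15 and 0.15 with scramble. It rose by 1.96 (SE 0.13, adjusted p = 0.0107). Tnni3, the cardiac isoform that replaces it after birth, rose by 0.998 (SE 0.13, adjusted p = 0.0456). Nebl, which encodes the cardiac nebulin relative nebulette, had 1.81 and 1.62 against 0.15 and -0.15 and rose by 1.71 (SE 0.15, adjusted p = 0.0223). Cardiac actin, Actc1, rose by 1.21 (SE 0.13, adjusted p = 0.0347), the capping protein gene Tmod1 by 1.19 (SE 0.11, adjusted p = 0.0238), and cardiac troponin C, Tnnc1, by 0.98 (SE 0.11, adjusted p = 0.0353). Tnnt2, the cardiac troponin T by which reprogrammed cells are commonly scored, differed by 0.51 (SE 0.11, adjusted p = 0.109). Its shYAP arrays, 0.50 and 0.53, both lay above the scramble arrays at -0.10 and 0.10. The actin filament regulator Lmod2 had -0.64 (SE 0.13, adjusted p = 0.103). Tnni1 thus had about the same ratio in both shYAP arrays, and both scramble arrays lay well below.

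Of 21 genes for titin, the Z-disc and the M-band, 3 rose and 7 were below 0 (all features: 41.5%). The median was 0.15, which became -0.0066 without shYAP array 1. Both shYAP arrays lay above both scramble arrays in 9 of the 21 (all features: 31%) and below them in 6 (all features: 19.6%). Ttn, the giant elastic protein titin, had ratios of 1.54 and 1.52 with shYAP against -0.32 and 0.32 with scramble and rose by 1.53 (SE 0.20, adjusted p = 0.0456). Actn2, the Z-disc crosslinker alpha-actinin 2, had 1.49 in both shYAP arrays against -0.02 and 0.02 and rose by 1.49 (SE 0.10, adjusted p = 0.0107). Myom2, an M-band myomesin, rose by 1.37 (SE 0.17, adjusted p = 0.0393). Des, the intermediate filament protein desmin, went the other way at -0.83 (SE 0.14, adjusted p = 0.075), with both shYAP arrays, -0.67 and -0.98, below the scramble arrays at -0.09 and 0.09. Genes for assembly of the sarcomere, chosen after their values were seen, also rose. Smyd1, a muscle methyltransferase needed for myofibril assembly, rose by 1.45 (SE 0.19, adjusted p = 0.0429), the myosin chaperone gene Unc45b by 0.96 (SE 0.13, adjusted p = 0.0456), and Itgb1bp2, which encodes the muscle integrin partner melusin, by 1.503 (SE 0.17, adjusted p = 0.0353).

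**Figure D3:**
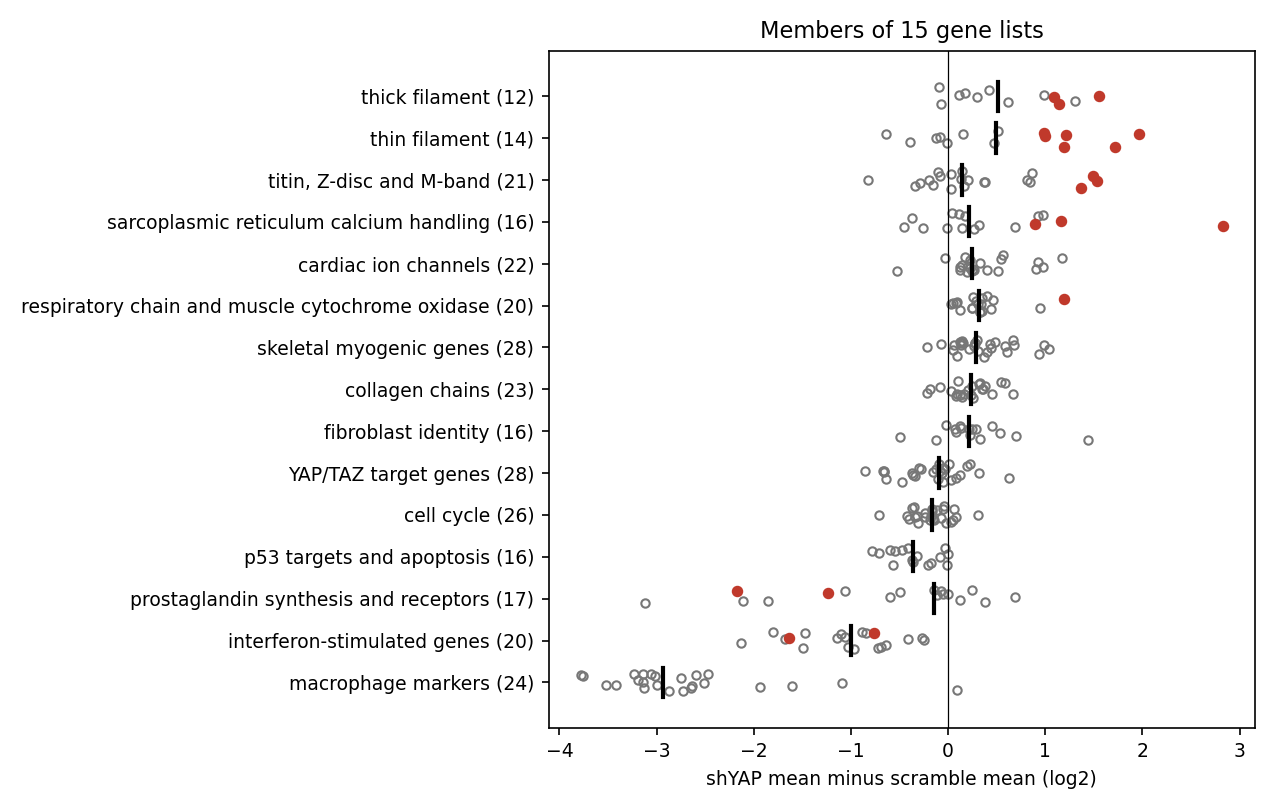
Difference in log2 between the shYAP and scramble means (x axis) for each measured member of 15 gene lists, with the number measured in parentheses. Filled red points passed limma, open points did not, and the black bar is the list's median, from 0.52 for the thick filament to -2.94 for macrophage markers. The vertical scatter within a list has no meaning.

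Because TEAD factors bind the MCAT core CATTCC, the 300 bases around the start site (250 before, 50 after; RefSeq, GRCm38.p6) of changed genes were searched for it on both strands. The core stood in 18 of 59 windows of 48 genes higher past limma (30.5%), in 7 of 41 windows of 35 lower genes (17.1%) and in 14.7% of all 32851 windows. Among the 19133 windows of measured genes its share was 13.4%. Among windows of the YAP/TAZ target list 9 of 23 held it (39.1%), and among those of all measured sarcomere genes 17 of 52 (32.7%). Of 16 windows of sarcomere genes past limma 6 held it (37.5%). Actc1, Actn2, Mybpc3, Tnni1 and Tnni3, which also rose, held no core in their windows. Some genes have several overlapping windows, and a match is a description of the letters. The sequences of 3 sarcomere genes that rose are shown with that of Ankrd1, all picked from genes that hold the core. They read 5′ to 3′ in the direction of transcription, with the core in capitals, which reads GGAATG where it lies on the other strand. The Myh6 window is chr14:54966558-54966857 (minus strand), and the core begins 206 bases before the start site. The Myh7 window is chr14:54994577-54994876 (minus strand), and the core begins 201 bases before the start site. The Tnnc1 window is chr14:31208062-31208361 (plus strand), with the core 58 bases before the start site. The Ankrd1 window is chr19:36119795-36120094 (minus strand) and holds 2 cores, 210 and 123 bases before the start site.
Myh6: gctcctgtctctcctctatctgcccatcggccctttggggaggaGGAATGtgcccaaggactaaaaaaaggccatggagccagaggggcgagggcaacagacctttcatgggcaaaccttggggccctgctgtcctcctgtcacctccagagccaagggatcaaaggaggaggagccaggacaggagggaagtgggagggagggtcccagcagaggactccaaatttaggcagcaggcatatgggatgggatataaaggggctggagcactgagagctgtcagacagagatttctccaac
Myh7: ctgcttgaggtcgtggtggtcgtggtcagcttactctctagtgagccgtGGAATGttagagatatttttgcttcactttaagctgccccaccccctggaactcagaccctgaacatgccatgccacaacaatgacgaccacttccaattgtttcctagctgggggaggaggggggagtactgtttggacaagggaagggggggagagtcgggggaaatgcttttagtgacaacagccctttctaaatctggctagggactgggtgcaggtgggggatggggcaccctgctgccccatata
Tnnc1: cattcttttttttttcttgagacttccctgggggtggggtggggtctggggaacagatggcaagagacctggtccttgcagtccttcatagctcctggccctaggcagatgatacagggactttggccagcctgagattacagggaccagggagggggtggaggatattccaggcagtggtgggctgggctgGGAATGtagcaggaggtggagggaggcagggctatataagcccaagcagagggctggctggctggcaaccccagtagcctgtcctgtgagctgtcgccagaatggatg
Ankrd1: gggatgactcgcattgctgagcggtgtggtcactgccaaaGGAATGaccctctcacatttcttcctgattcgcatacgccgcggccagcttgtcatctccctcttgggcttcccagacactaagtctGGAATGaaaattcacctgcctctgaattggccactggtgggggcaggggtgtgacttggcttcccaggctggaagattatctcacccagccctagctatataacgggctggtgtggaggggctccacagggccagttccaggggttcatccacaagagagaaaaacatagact
The direction of the difference with shYAP was up in the first 3 genes and below 0 in Ankrd1. Since these genes were picked for holding the core, they do not tell how the core relates to direction. The GATA motif AGATAA was in 10 of the 59 windows of higher genes (16.9%) and 11.2% of all windows, and the E-box CANNTG in 50 (84.7%) and 72.3%. Among windows of measured genes the shares were 9.57% and 68.9%. The MEF2 motif was in 4 (6.78%) and 3.19%, and the T-box motif AGGTGTGA in 1 (1.69%) and 1.28%. For measured genes these 2 motifs had shares of 2.63% and 1.13%. Of the 41 windows of lower genes, the GATA motif was in 4 (9.76%), the E-box in 28 (68.3%), the MEF2 motif in 3 (7.32%) and the T-box motif in 1 (2.44%). For genes 2-fold changed against each scramble array, the E-box was in 44 of 54 windows of higher ones (81.5%). It was in 125 of 145 windows of lower ones (86.2%).

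Genes of calcium handling and of cardiac regulation were among the higher ones. Pln, phospholamban, which restrains the calcium pump of the sarcoplasmic reticulum, had ratios of 2.86 and 2.79 with shYAP against -0.44 and 0.44 with scramble. It rose by 2.83 (SE 0.29, adjusted p = 0.0335), with 3.27 against scramble array 1 and 2.38 against scramble array 2. Srl, the lumenal calcium-binding protein sarcalumenin, rose by 1.17 (SE 0.13, adjusted p = 0.0353), and Slc8a1, the sodium-calcium exchanger, by 0.90 (SE 0.10, adjusted p = 0.0361). These were 3 of 16 calcium handling genes, whose median was 0.22. The pump gene itself, Atp2a2, named after its value was seen, differed by 0.32 (SE 0.11, adjusted p = 0.212), and the release channel gene Ryr2 by 0.69 (SE 0.17, adjusted p = 0.135). Of 22 cardiac ion channel genes none passed and 20 were above 0 (all features: 58.5%), with a median of 0.25. The largest of these was Kcnip2, a subunit of the transient outward potassium channel, at 1.17 (SE 0.22, adjusted p = 0.0888), and the calcium channel subunit gene Cacnb2 had 0.91 (SE 0.14, adjusted p = 0.0607). Of 19 cardiac transcription regulators other than the introduced factors, Myocd rose. Myocd, the coactivator myocardin of serum response factor, had 1.29 and 1.32 with shYAP against -0.09 and 0.09 and rose by 1.30 (SE 0.15, adjusted p = 0.0361). Skeletal myogenic genes did not pass (0 of 28), and 26 were above 0 (all features: 58.5%), with a median of 0.29 and the widest at 1.04 (SE 0.23, adjusted p = 0.118) for the caveolin gene Cav3.

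Nppa fell. Nppa, which encodes atrial natriuretic peptide, a hormone of atrial and of stressed ventricular cells, had ratios of -2.34 and -1.49 with shYAP against 0.06 and -0.06 with scramble. It fell by 1.91 (SE 0.26, adjusted p = 0.048), with -1.98 against scramble array 1 and -1.85 against scramble array 2. It was the 1 gene of 12 in the atrial and natriuretic list that passed, and 9 of the 12 were above 0 (all features: 58.5%). Corin, the protease that activates its propeptide, had a difference of 1.13 (SE 0.18, adjusted p = 0.0667). Nppb, which encodes the related B-type peptide and was named after its value was seen, had -0.36 (SE 0.18, adjusted p = 0.33).

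Some energy metabolism genes of oxidative muscle rose. Ppargc1a, which encodes PGC-1alpha, a coactivator of mitochondrial biogenesis, had ratios of 2.04 and 1.66 with shYAP against -0.31 and 0.31 and rose by 1.85 (SE 0.23, adjusted p = 0.0393). Fabp3, the heart fatty acid-binding protein, rose by 1.30 (SE 0.10, adjusted p = 0.0186), and these were the 2 of 19 fatty acid oxidation genes that passed. Cox7a1, the muscle isoform of a cytochrome oxidase subunit, had 1.22 and 1.18 against -0.01 and 0.01 and rose by 1.20 (SE 0.10, adjusted p = 0.0223). It was the 1 of 20 genes in the respiratory chain list that passed, a list that also holds Mb and Ckmt2. All 20 were above 0 (all features: 58.5%), by 0.03 to 1.20 with a median of 0.32. Against scramble array 1 alone 18 were above 0, and against scramble array 2 alone all 20. Myoglobin, Mb, had 0.95 (SE 0.13, adjusted p = 0.0526). Pgam2, the muscle phosphoglycerate mutase of glycolysis, rose by 1.74 (SE 0.16, adjusted p = 0.0238). In the glycolysis list, 11 of 14 genes were below 0 (all features: 41.5%), but this depended on the control: 12 were below 0 against scramble array 1, with a median of -0.23, and 6 against scramble array 2, with a median of 0.03. Hk2, hexokinase 2, which traps glucose in the cell, fell by 1.09 (SE 0.14, adjusted p = 0.0403). Cd36, a fatty acid transporter that macrophages also express, had -2.90 (SE 0.51, adjusted p = 0.0799).

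Chrna3 had the largest rise of any feature. Chrna3 and Chrnb4 encode the alpha 3 and beta 4 subunits of the ganglionic nicotinic acetylcholine receptor, a cation channel of autonomic neurons. Chrna3 had ratios of 3.16 and 3.17 in the shYAP arrays against 0.01 and -0.01 in the scramble arrays and rose by 3.16 (SE 0.12, adjusted p = 0.00192). Chrnb4 had 2.50 and 2.30 against -0.19 and 0.19 and rose by 2.40 (SE 0.16, adjusted p = 0.0107). The genes are neighbours on chromosome 9 in GRCm38.p6, with Chrna5 next to Chrna3 on the other side and Psma4 beyond it. Chrna5, which encodes a further subunit of this receptor, differed by 0.15 (SE 0.20, adjusted p = 0.704), and Psma4, a proteasome subunit gene, by 0.13 (SE 0.11, adjusted p = 0.54). Of 11 neuronal-type subunit genes, Chrna3 and Chrnb4 passed, and the next was Chrnb2 at 0.66 (SE 0.18, adjusted p = 0.145). No gene in the list of neural and glial markers passed, and neuronal genes outside these 2 lists were not examined as a set. Of 13 measured, 0 passed, 10 were above 0 (all features: 58.5%), and the median was 0.05 (-0.08 without shYAP array 2), from -0.42 to 0.76. With shTAZ the ratios of Chrna3 were 0.22 and 0.46 and those of Chrnb4 0.45 and 0.53, so both shTAZ arrays lay far below both shYAP arrays.

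**Figure D4:**
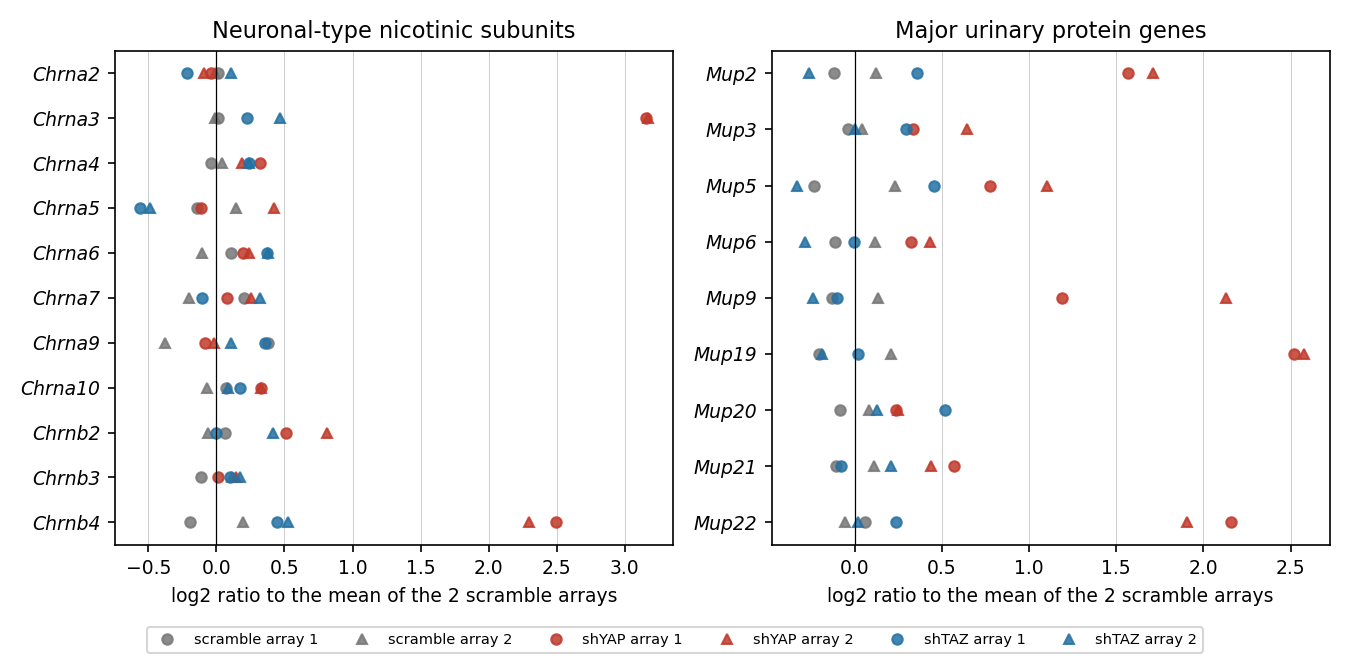
Log2 ratio to the scramble mean (x axis) in each scramble (grey), shYAP (red) and shTAZ (blue) array for 11 neuronal-type nicotinic receptor subunit genes (left) and 9 major urinary protein genes (right), with circles for array 1 and triangles for array 2. Chrna3 and Chrnb4 stand at 2.30 to 3.17 in the shYAP arrays and at 0.22 to 0.53 in the shTAZ arrays, and in the right panel Mup19 and Mup22 are separated in the same way.

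The major urinary protein genes were noticed among the highest features and were chosen after their values were seen. They encode small lipocalins that carry pheromones and are best known as products of the liver. Mup19 had ratios of 2.52 and 2.58 with shYAP against -0.21 and 0.21 with scramble and rose by 2.55 (SE 0.16, adjusted p = 0.0107). Mup22 rose by 2.03 (SE 0.14, adjusted p = 0.0107) and Mup2 by 1.64 (SE 0.21, adjusted p = 0.0443), while Mup9 had 1.66 (SE 0.29, adjusted p = 0.0799) and Mup5 0.94 (SE 0.29, adjusted p = 0.177). All 9 measured genes were above 0 against each scramble array, with a median of 0.94. Of all 22122 features, 13505 were above 0 against scramble array 1 and 12036 against scramble array 2. The Mup genes are related copies in 1 cluster on chromosome 4, so which of them gave the signal is uncertain. How alike all 9 are was not analysed here. Promoters were aligned for 1 pair: the Mup19 and Mup2 windows have 291 identical bases in an alignment of 306 positions (95.1%). The Mup19 window is chr4:61782175-61782474 and the Mup2 window chr4:60139807-60140106, both on the minus strand, with 1 MCAT core each (in capitals), 135 and 136 bases before the start site.
Mup19: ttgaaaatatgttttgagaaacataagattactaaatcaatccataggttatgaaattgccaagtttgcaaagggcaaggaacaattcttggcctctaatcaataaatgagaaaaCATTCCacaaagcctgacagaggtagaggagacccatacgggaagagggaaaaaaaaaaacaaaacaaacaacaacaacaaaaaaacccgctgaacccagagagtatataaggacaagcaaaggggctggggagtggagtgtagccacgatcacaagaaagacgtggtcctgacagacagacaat
Mup2: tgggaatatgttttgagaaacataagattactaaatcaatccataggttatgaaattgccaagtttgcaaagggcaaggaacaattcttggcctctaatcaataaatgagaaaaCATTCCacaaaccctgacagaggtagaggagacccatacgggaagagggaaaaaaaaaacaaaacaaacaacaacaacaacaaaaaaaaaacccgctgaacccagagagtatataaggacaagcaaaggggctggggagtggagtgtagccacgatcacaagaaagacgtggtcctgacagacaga
In the shTAZ arrays the median of the 9 genes was 0.06. On the soft gel (8 kPa) all 9 were below their 126 kPa level (all features: 44.3%), with a median of -1.05. In the shYAP arrays on stiff gel all 9 were above scramble (all features: 58.5%).

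Other genes with large rises have varied roles. Car3, a carbonic anhydrase of muscle and fat, had ratios of 2.67 and 2.57 with shYAP against -0.04 and 0.04 and rose by 2.62 (SE 0.12, adjusted p = 0.00449). Car2 rose by 1.09 (SE 0.12, adjusted p = 0.0353) and Car14 by 1.11 (SE 0.12, adjusted p = 0.0353), both chosen after their values were seen. The anion transporter gene Slc26a7 rose by 2.33 (SE 0.26, adjusted p = 0.0353), with 2.76 and 1.91 against the 2 scramble arrays. Plac1, a placental gene, rose by 2.02 (SE 0.24, adjusted p = 0.0376), and Cited1, a transcription coregulator, by 2.01 (SE 0.17, adjusted p = 0.0223). Camk1g, a calmodulin-dependent kinase gene, rose by 1.66 (SE 0.10, adjusted p = 0.0107) and was nearly level between the scramble arrays. Adipoq, the fat hormone adiponectin, differed by 1.66 (SE 0.40, adjusted p = 0.128), with 1.002 in shYAP array 1 and 2.32 in shYAP array 2. Of 11 adipocyte markers Car3 alone passed. Vsnl1, a neuronal calcium sensor gene, had 2.12 (SE 0.31, adjusted p = 0.0595), and Mhrt, a long noncoding RNA antisense to Myh7, had 1.74 (SE 0.24, adjusted p = 0.0519). The chemokine gene Cxcl13 had 2.19 (SE 0.64, adjusted p = 0.167), with shYAP arrays at 1.64 and 2.74.

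Interferon-stimulated genes were lower. All 20 measured genes were below 0 (41.5% of all features were), by 0.25 to 2.13, with a median of -1.002, and 2 fell past limma. The median was -0.76 against scramble array 1 and -1.04 against scramble array 2, and all 20 were below 0 against each. Irf7, the regulator that amplifies the interferon response, had ratios of -1.72 and -1.54 with shYAP against -0.06 and 0.06 and fell by 1.63 (SE 0.14, adjusted p = 0.0223). Ifih1, which encodes the double-stranded RNA sensor MDA5, fell by 0.76 (SE 0.10, adjusted p = 0.0441). The antiviral GTPase gene Mx2 had -1.80 (SE 0.36, adjusted p = 0.0961), with a wide gap between the scramble arrays at -0.50 and 0.50. Further genes known to be induced by interferon passed, chosen after their values were seen. Rtp4 fell by 1.76 (SE 0.20, adjusted p = 0.0353), Phf11d fell by 1.44 (SE 0.13, adjusted p = 0.023), Isg20, an exonuclease gene, fell by 1.13 (SE 0.12, adjusted p = 0.0347), and Xaf1 fell by 1.06 (SE 0.13, adjusted p = 0.0395). Herc6 fell by 0.94 (SE 0.10, adjusted p = 0.0353) and Helz2 fell by 0.87 (SE 0.10, adjusted p = 0.0391). In these 6 genes the scramble arrays lay within 0.20 of each other, and both shYAP arrays lay below them, which a call past limma itself favours. Macrophages can express such genes, and 23 of 24 macrophage markers, with a median of -2.94, were also below 0. Their part in these values was not tested.

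Macrophage markers had the widest differences and none passed. Of 24 measured, 23 were below 0 (all features: 41.5%), each by 2-fold or more (all features: 1.93%), with a median of -2.94. The number past limma was 0, and 21 were lower at an unadjusted p under 0.05 (all features: 7.39%). Their median ratio was 1.10 in scramble array 1, -1.10 in scramble array 2, -2.11 in shYAP array 1 and -3.59 in shYAP array 2, so the arrays of each group differed from one another by over 1 in log2. The median was -3.89 against scramble array 1 and -1.88 against scramble array 2. Against each, 19 of the 24 were lower by 2-fold or more (all features: 0.791%). C1qa, a complement component of resident macrophages, had -3.42 and -4.13 with shYAP against 1.35 and -1.35 and differed by -3.78 (SE 0.79, adjusted p = 0.106). The receptor gene Csf1r, on which macrophages depend, differed by -3.14 (SE 0.92, adjusted p = 0.165). Cd163, a scavenger receptor of some macrophages, was the exception at 0.09. In whole cultures, fewer macrophages and less of their RNA per cell cannot be told apart. Outside the list, 2 genes of myeloid cells passed. Cd5l, a lipid-binding secreted protein of macrophages, had -3.20 and -2.87 with shYAP against 0.53 and -0.53 and fell by 3.04 (SE 0.33, adjusted p = 0.0353). Ncf4, a subunit of the phagocyte oxidase, fell by 2.04 (SE 0.25, adjusted p = 0.0393). The widest differences of all included further genes of myeloid cells, with Ly86 at -4.77 (SE 0.75, adjusted p = 0.0672), Ms4a6d at -4.22 (SE 0.83), Dpep2 at -4.20 (SE 0.87), Mpeg1 at -3.76 (SE 0.81) and Cybb at -3.64 (SE 0.83). Markers of other leukocytes did not share this: of 17, 13 were above 0 (all features: 58.5%) and the median was 0.12.

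**Figure D5:**
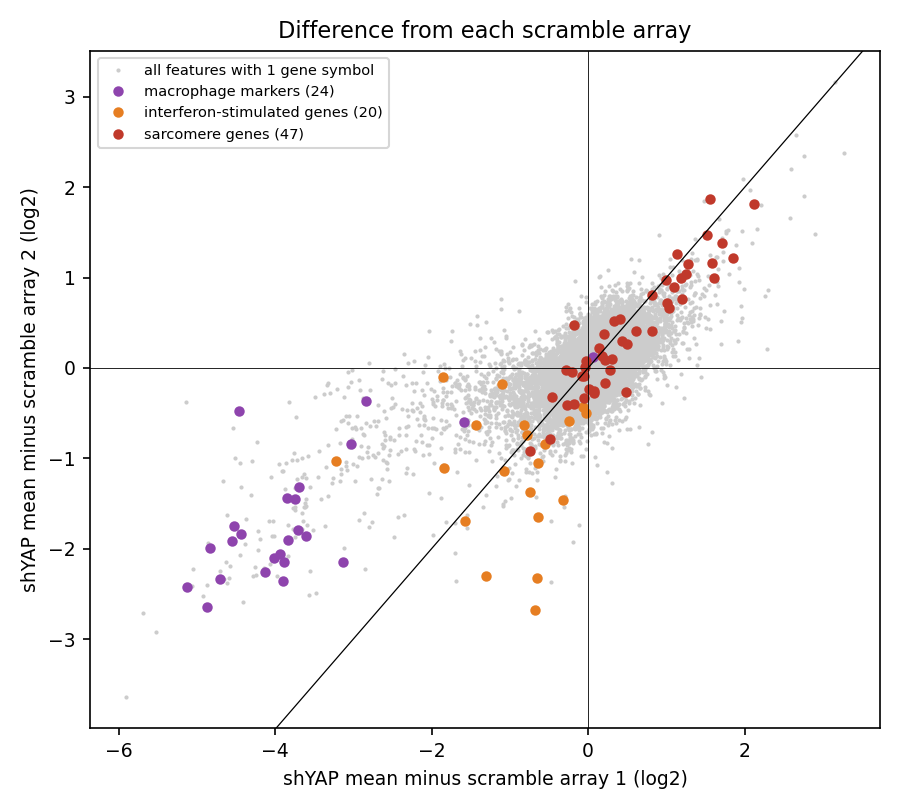
Mean of the shYAP arrays minus scramble array 1 (x axis) against the same minus scramble array 2 (y axis), both in log2, for every feature with 1 gene symbol. On the diagonal both controls give the same difference. Sarcomere genes (red) have medians of 0.33 and 0.30, and their median of scramble array 1 minus scramble array 2 is -0.20. Macrophage markers (purple) lie above the diagonal, with medians of -3.89 and -1.88. Interferon-stimulated genes (orange) scatter on both sides, with medians of -0.76 and -1.04. Both axes share the shYAP mean.

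Some genes of prostaglandin synthesis fell. Ptgs2, the inducible cyclooxygenase, had ratios of -2.45 and -1.90 with shYAP against 0.30 and -0.30 and fell by 2.17 (SE 0.25, adjusted p = 0.0361). Pla2g4a, the phospholipase that releases its substrate arachidonic acid, had -1.28 and -1.20 against -0.07 and 0.07 and fell by 1.24 (SE 0.11, adjusted p = 0.0238). These were the 2 of 17 that passed, and the list's median was -0.14. Hpgds, the synthase of prostaglandin D2 in blood cells, had -3.11 (SE 0.83, adjusted p = 0.145), with scramble arrays at 1.10 and -1.10 as in the macrophage markers. Among other genes, Pgap6 fell by 2.54 (SE 0.25, adjusted p = 0.0267). The matrix glycoprotein gene Tnn fell by 2.02 (SE 0.26, adjusted p = 0.0447), the ubiquitin ligase gene Rnf128 fell by 1.99 (SE 0.24, adjusted p = 0.0393), and Prrg4 fell by 1.87 (SE 0.15, adjusted p = 0.0186). The serotonin receptor gene Htr2b had -1.55 and -1.87 with shYAP against -0.01 and 0.01 and fell by 1.71 (SE 0.14, adjusted p = 0.0192). Anxa8, an annexin, fell by 1.66 (SE 0.12, adjusted p = 0.0112).

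No fibroblast or collagen gene passed. Of 23 collagen chains, 20 were above 0 (all features: 58.5%), 0 passed, and the median was 0.24. It was 0.38 against scramble array 1 and 0.08 against scramble array 2. Col1a1, the main collagen of fibroblasts, differed by 0.09 (SE 0.12, adjusted p = 0.737), and Col3a1 by 0.45 (SE 0.16, adjusted p = 0.227). Of 16 fibroblast identity genes, 13 were above 0 (all features: 58.5%) and 0 passed, with a median of 0.22, which was 0.38 and 0.05 against the 2 scramble arrays. Thy1, a surface marker of fibroblasts, differed by -0.02 (SE 0.20, adjusted p = 0.971), with scramble arrays at -0.26 and 0.26. Dpt, the matrix protein dermatopontin, had the widest difference, 1.44 (SE 0.35, adjusted p = 0.13). Of 14 smooth muscle and myofibroblast genes 0 passed, with a median of -0.06 (0.06 against scramble array 1 and -0.23 against scramble array 2). In the matrix protease list the macrophage elastase gene Mmp12 had -2.99 (SE 0.56, adjusted p = 0.0908) and 0 of 20 passed.

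Genes of growth control were mostly below 0 by small amounts. Of 16 p53 target and apoptosis genes all were below 0 (all features: 41.5%) and 0 passed, with a median of -0.37 (-0.41 and -0.33 against the 2 scramble arrays). Against scramble array 1 alone 13 were below 0, and against scramble array 2 alone 14 (all features: 8617 and 10086 of 22122). Ccng1, cyclin G1, had -0.78 (SE 0.13, adjusted p = 0.0712), and Cdkn1a, the cell cycle inhibitor p21, had -0.71 (SE 0.10, adjusted p = 0.0556). Mdm2, the ubiquitin ligase of p53, had -0.60 (SE 0.11, adjusted p = 0.0875). Of 26 cell cycle genes 21 were below 0 (all features: 41.5%) and 0 passed, with a median of -0.16. Cdkn1a stands in both lists. Against the scramble arrays singly the cell cycle median was -0.12 and -0.20.

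The shYAP and shTAZ arrays were compared directly, a contrast that the scramble arrays enter only through the estimate of the spread. Past limma, 10 of 22122 features differed (0.0452%), 7 higher and 3 lower with shYAP, and 7 of the 10 carry a symbol. Chrna3 was 2.82 higher with shYAP (SE 0.12, adjusted p = 0.00396), Mup19 2.63 higher (SE 0.16, adjusted p = 0.0226), Chrnb4 1.91 higher (SE 0.16, adjusted p = 0.0276) and Mup22 1.91 higher (SE 0.14, adjusted p = 0.0276). Lower with shYAP were Prrg4, Lims2, an adaptor gene of focal adhesions, and Sult5a1, a sulfotransferase gene. The differences (shYAP minus shTAZ) were -1.79 (SE 0.15, adjusted p = 0.0276), -1.45 (SE 0.12, adjusted p = 0.0276) and -1.24 (SE 0.10, adjusted p = 0.0276). Lims2 had ratios of -0.83 and -0.96 with shYAP and 0.65 and 0.47 with shTAZ, on opposite sides of scramble. Lims2 and Sult5a1 were chosen after their values were seen. Of the 12 sarcomere genes that rose with shYAP, 0 passed this comparison (adjusted p from 0.0589 for Tnni1 to 0.869 for Tnni3). Since these 12 were picked by their shYAP values, their direction against shTAZ is not informative. Over all 47 sarcomere genes the median against scramble was 0.29 with shYAP and 0.35 with shTAZ, relative to the same scramble arrays. Yap1 was 1.01 lower with shYAP than with shTAZ (SE 0.12, adjusted p = 0.114), and Wwtr1 was 0.44 higher (SE 0.17, adjusted p = 0.606).

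The soft gel arrays, which share no array with this comparison, gave another reading of the same genes. They hold GHMT without a hairpin on 8 kPa and on 126 kPa, 2 arrays each. Of the 71 features higher with shYAP, 41 were higher on 8 kPa than on 126 kPa (57.7%, all features: 55.7%), with a median of 0.06 in log2. Of the 47 lower ones, 25 were lower on 8 kPa (53.2%, all features: 44.3%), with a median of -0.06. The share of the higher ones is thus near that of all features, and that of the lower ones is above it. On 8 kPa 0 of the 118 passed limma. The share of all features passing there was not counted, so this 0 is not read as a result. Of the 12 sarcomere genes that rose with shYAP, 7 were above 0 on 8 kPa, and they ranged from -0.23 for Ttn to 0.51 for Tmod1. Pln differed by 0.14 and Chrna3 by 0.13. Of the 175 features lower by 2-fold or more against each scramble array, 155 (88.6%) were below 0 on 8 kPa (all features: 44.3%). The median there was -0.57. In 53 of the 175 the 8 kPa mean was also lower by 2-fold or more. The share over all features was not counted, so no overlap is read from this. In 135 of the 175 scramble array 1 exceeded scramble array 2 by 2-fold or more. Macrophage markers were lower there too, 23 of 24 with a median of -1.27. The genes of the respiratory chain list were above 0 on 8 kPa in 10 of 20 (all features: 55.7%).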

How the data were processed

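RNA of 14 samples (7 groups, 2 each) was labelled from total RNA and hybridised to Clariom S Mouse arrays, and the scans were processed by the authors with Affymetrix Expression Console 1.4, per the labels. The deposited values are log2 ratios, which the authors made within sets of arrays; the scramble, shYAP and shTAZ set is relative to the mean of the 2 scramble arrays, since their values sum to 0 in every feature. The normalization before that step is not given in the sources used here, and without signal levels no filter on dim features was possible. The number of arrays limits the precision.

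From these values, limma 3.58.1 (R 4.3.3) was fitted to the 6 arrays of the shRNA set over 22122 features, with 3 residual degrees of freedom, and contrasts were shYAP minus scramble and shYAP minus shTAZ. The 8 kPa and 126 kPa arrays were fitted with limma apart from them. P-values were two-sided and adjusted by Benjamini-Hochberg over all features. The fit was tested on simulated data. A 2-fold change is a log2 difference of at least 1. Features not overlapping between groups have both shYAP arrays on 1 side of both scramble arrays. Gene symbols came from the platform annotation. The members and the 41 gene lists were chosen with earlier results of these data known, so their counts are descriptions. A gene stands in its list by its first feature (664 of 714 list genes had one). Genes named are the 12 largest in each direction past limma and 2-fold changed by group means, with the same sign in all 4 differences between single arrays, up to 5 with the widest difference in each list described, the genes the study names for its arrays or qRT-PCR, and the 8 largest in each direction among others 2-fold changed against each scramble array; predicted genes and olfactory and vomeronasal receptors were not named. Others were chosen after their values were seen. Promoter windows are those of RefSeq. Alternatives were other sets of arrays, array weights, a replicate block, a minimum difference, robust variance, median centring, each array left out, other folds, and features with 1 symbol.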

Additional observations from a re-analysis of the deposited data

Results flagged for a closer look

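The direct comparison of shYAP with shTAZ picked out 6 of the genes called against scramble, as a difference between the 2 hairpin groups past limma. The log2 differences (shYAP minus shTAZ, n = 2 arrays per group) were 2.82 for Chrna3, 1.91 for Chrnb4, 2.63 for Mup19, 1.91 for Mup22, -1.79 for Prrg4 and -1.45 for Lims2. In all 6 genes both shYAP arrays lay on 1 side of both shTAZ arrays, which a call past limma itself favours. Groups of 2 arrays allow no check for a single outlying array.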

How the results depend on the processing

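Counts past limma depended on the arrays in the fit (71 higher, 47 lower in the 6-array fit). With the 4 arrays alone 2 and 0 passed, at unadjusted p under 0.05 in limma 2009 and 1293, and in a fit to all 14 arrays 250 and 318. Array weights gave 40 and 22, and a minimum log2 difference of 0.5 gave 7 and 0. Leaving out 1 array gave 0 to 832 higher and 0 to 1105 lower features. The lone array of a group is then assumed to vary like the other groups. Without scramble array 2 all 118 calls still passed, against 50 without scramble array 1. Robust variance, median centring and features with 1 symbol changed these counts by under 1.5 times. A block for replicate number left 22 and 9, of which 22 were among the 118. The correlation of same-numbered deviations was 0.20 between scramble and shYAP, -0.02 between scramble and shTAZ and -0.00075 between shYAP and shTAZ. With 2 arrays per group, these values cannot settle whether the replicate numbers pair the samples. With the block for replicate number 1 of the 5 genes selected by rule passed between shYAP and shTAZ.

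At least 2-fold against each scramble array, 64 features were higher and 175 lower; 1.5-fold gave 289 and 457, 3-fold gave 16 and 82, and leaving out 1 array gave 70 to 248 and 144 to 701. By group means, 117 and 427 became 591 and 943 at 1.5-fold, 26 and 230 at 3-fold, and 74 to 248 and 221 to 701 with 1 array left out. Among features under 2-fold apart between the scramble arrays, an alternative chosen after seeing the data, 89 were lower by group means.

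All 109 genes with a symbol past limma kept their direction in every setting. Leaving out an array could not reverse it, since the groups did not overlap in any of the 71 higher and 47 lower features. Other named genes changed sign when 1 scramble array was left out: Tead1 ranged from -0.40 to 0.20, Wwtr1 from -0.15 to 0.35, Col10a1 from -0.11 to 1.44, Tgfbr3 from -0.021 to 0.93, Col1a1 from -0.055 to 0.23, Thy1 from -0.28 to 0.24 and Hand2 from -0.0061 to 0.33. The cause was not tested.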
